A study of Mus musculus with 16 samples.

Results

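Chromatin around 10 core circadian clock genes was examined in 3T3-L1 cells, an established mouse preadipocyte line that can be driven to become adipocytes in culture. The genes were taken by name out of 22367 annotated protein-coding genes, by a rule that uses no measured value: the repressors Per2, Per3, Cry1 and Cry2, the activators Arntl (which encodes BMAL1) and Clock, the nuclear receptors Nr1d1 and Nr1d2, and the transcription factors Dbp and Bhlhe40. Each gene was given a window of its gene body plus 50 kb on either side in the mm9 genome. The regions of enrichment overlapping that window, called islands, were read from the lists of 16 ChIP-seq libraries. Acetylation of histone H3 lysine 27 (H3K27ac), a mark of active enhancers and promoters, was profiled in cells stably carrying an empty retroviral vector and in cells carrying SETD5 with a V5 tag, before induction (0 h) and 48 h after addition of insulin, dexamethasone and isobutylmethylxanthine. Each of these 4 groups had 2 libraries, named A and B. The tagged SETD5 was profiled with a V5 antibody at 0 h and 6 h, again with 2 libraries each, while H3K4me1, a mark shared by primed and active enhancers, at 0 h and 48 h and endogenous SETD5 at 0 h and 6 h had 1 library each. The vector drove SETD5 from a weak LTR promoter, and the study's methods call libraries A and B biological replicates. The labels name SETD5-V5 for the H3K4me1 libraries, whose titles name no vector, and give no vector for library A of SETD5-V5.

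In the mammalian clock, a heterodimer of CLOCK and BMAL1 binds E-boxes and switches on the Per and Cry genes, whose products return to the nucleus and repress that heterodimer. The same heterodimer drives Nr1d1 and Nr1d2, which encode REV-ERBα and REV-ERBβ, repressors that bind ROR elements and silence Arntl, and it drives Dbp, an activator that binds D-boxes. The loop also runs in adipose tissue, where genes of lipid metabolism follow a daily rhythm. Glucocorticoids and cAMP, the pathways that dexamethasone and isobutylmethylxanthine engage, are known to reset the clock of cultured cells through Per genes.

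A list gives, for every island, its position and a score but no read count, so depth cannot be read from it. The read total that the study states for each library was not used here, and a region absent from a list lay below the caller's threshold. The H3K27ac lists held 31292 to 39949 islands, those of H3K4me1 50276 at 0 h and 49926 at 48 h. SETD5-V5 lists were more uneven, with 16054 (A) and 6666 (B) islands at 0 h against 35573 (A) and 27220 (B) at 6 h, and endogenous SETD5 had 2132 and 3293. The cells carried the marks of their label: promoter islands of H3K27ac stood at Col1a1, Col3a1, Pdgfra, Pdgfrb, Thy1 and Dlk1 in all 8 lists and at Alb, Myod1, Ptprc and Cdh5 in none. The adipocyte genes Fabp4 and Plin1 had a promoter island in 0 of 4 lists at 0 h and in all 4 at 48 h, whereas Adipoq had one in both empty-vector lists of 48 h only. Pparg, Cebpa and Lpl had one in all 8.

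All 10 clock genes carried an H3K27ac island within 1 kb of an annotated start in all 8 libraries. The summed length of island in a window (the covered length) ranged widely among them. Over the 8 libraries Nr1d1 had a median of 49.9 kb, or 46.4% of its window, in a stretch that also holds Thra, Med24, Msl1 and Casc3. The other medians were 25.4 kb for Per2, 18.8 kb for Cry2, 16.3 kb for Dbp, 14.0 kb for Arntl, 9.6 kb for Clock, 6.5 kb for Bhlhe40, 6.3 kb for Nr1d2, 5 kb for Cry1 and 4.3 kb for Per3. The ranges of neighbours in this order overlapped except that of Nr1d1, which at 48.2 to 59.0 kb lay above the 10.6 to 47.2 kb of Per2. The strength of the promoter island followed another order. Its rank, given here as the percentage of the islands in the same list that had a higher score, was best at Bhlhe40, with 0.404% to 0.915%, and poorest at Cry1 and Per3, whose ranges of 45.2% to 81.5% and 33.6% to 64.9% overlapped. Bhlhe40 encodes a repressor that competes for E-boxes, and no other protein-coding gene lay in its window, which held only 4.2 to 8.4 kb of island.

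**Figure D1:**
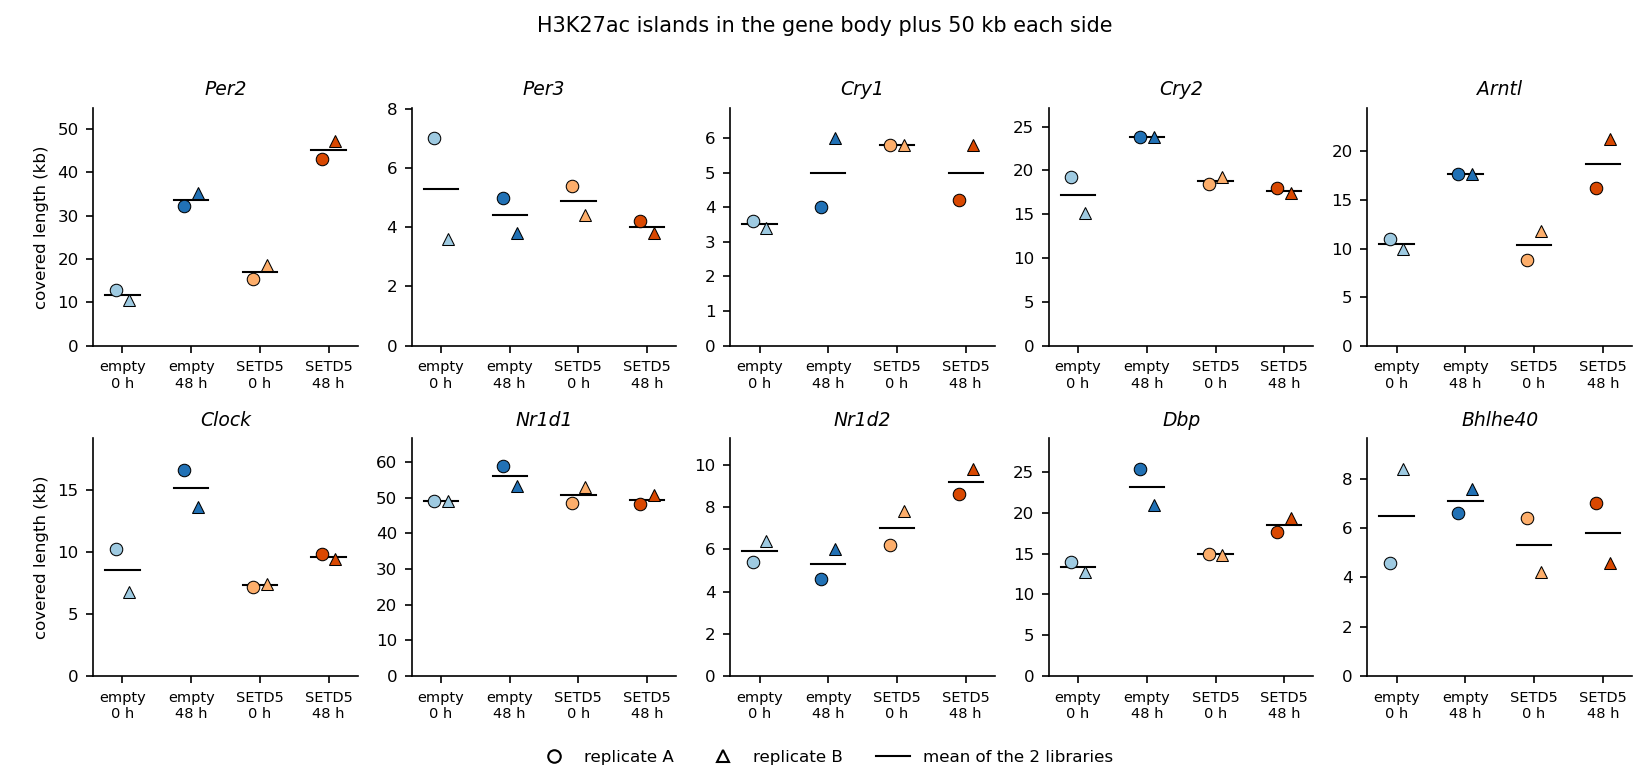
Covered length of H3K27ac islands (kb) in the window of each clock gene, by vector and time, with circles for library A, triangles for library B and a bar at the mean of the 2 libraries; each panel has its own scale from 0. Per2 rises from 10.6 to 12.8 kb to 32.2 to 35.2 kb in empty-vector cells and from 15.4 to 18.6 kb to 43 to 47.2 kb in SETD5 cells, and Cry2 reaches 23.8 kb in both empty-vector libraries of 48 h alone.

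Covered length was compared with limma on log2(kb + 1), fitted over the 17041 genes whose windows held 1 kb or more of H3K27ac on average. In empty-vector cells 5 of the 10 clock genes had a longer covered length at 48 h than at 0 h at an adjusted p under 0.05 (Per2, Dbp, Clock, Arntl and Cry2) and none a shorter one, where 37.2% of all genes tested were called, 23.6% as longer and 13.6% as shorter. The median log2 change of the 10 genes was 0.43 against 0.14 over all genes. Scaling of the libraries to equal medians left 4 of the 5 (Cry2 was lost) and moved the share of longer windows among all calls from 63.5% to 52.5%. In SETD5 cells 2 of 10 were longer, Per2 and Arntl, and none shorter, against 26.6% of all genes called, 14.8% as longer and 11.9% as shorter, with a median of 0.20 against 0. SETD5 and empty-vector cells were not called different at any clock gene at 0 h (background 2.01% of all genes, with 1.27% longer and 0.739% shorter), with 2 of 10, Per2 and Cry1, under an unadjusted p of 0.05 (15.0% of all genes). At 48 h only Nr1d2 was called, longer in SETD5 cells (background 13.9%, with 6.58% longer and 7.28% shorter), and 4 of 10, Per2, Cry2, Clock and Nr1d2, were under an unadjusted p of 0.05 (28.7%). The difference between vectors in the 48 h change was called at none of the 10 (background 3.01%, with 1.26% positive and 1.75% negative), with 1 of 10, Cry2, under an unadjusted p of 0.05 (19.1% of all genes), and scaling to equal medians moved the share of positive differences among all calls from 41.7% to 52.2%. These comparisons share libraries and are not independent of each other.

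Upstream of the genes, the 250 bases before each annotated 5′ end in mm9 were searched on both strands for 6 motifs of clock, glucocorticoid and cAMP regulation. They were the E-box CACGTG, found in 6.52% of 22362 protein-coding promoters of that length, the E′-box CACGTT (4.11%), the D-box TTANGTAA (2.02%), the ROR element TAGGTCA (2.2%), the cAMP element TGACGTCA (1.91%) and the glucocorticoid element, GNACA and TGTNC with 3 bases of any kind between them (0.353%). Matches were present in 6 of the 10: an E-box and an E′-box in Cry1, an E′-box in Cry2 and Nr1d1, a D-box in Per2 and 2 in Per3, all 3 reading TTATGTAA, and a ROR element in Dbp. Beyond these bases, the H3K27ac sites at the starts held further matches. At Per2 an E′-box lay at 0.016 kb from the start, and at Arntl a ROR element at 0.076 kb. Bhlhe40 had an E-box at -0.257 kb, and Nr1d2 had 3 E-boxes at 0.454 to 0.602 kb. In H3K27ac sites of the genome, 2.53% of windows of 200 bases held an E-box, 2.69% an E′-box and 1.96% a ROR element. The sequences of Per2, Cry2, Nr1d1 and Dbp are shown because their promoter islands moved in different ways in the libraries. They read 5′ to 3′ on the strand of the gene and end at the base before its start, with matches in capitals.
Per2 (chr1:93355908-93356157, minus strand): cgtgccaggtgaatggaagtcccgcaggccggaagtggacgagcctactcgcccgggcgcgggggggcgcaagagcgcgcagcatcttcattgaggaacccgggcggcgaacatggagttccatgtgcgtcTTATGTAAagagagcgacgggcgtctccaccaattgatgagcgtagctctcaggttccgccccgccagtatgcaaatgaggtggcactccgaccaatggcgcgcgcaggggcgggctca
Cry2 (chr2:92274201-92274450, minus strand): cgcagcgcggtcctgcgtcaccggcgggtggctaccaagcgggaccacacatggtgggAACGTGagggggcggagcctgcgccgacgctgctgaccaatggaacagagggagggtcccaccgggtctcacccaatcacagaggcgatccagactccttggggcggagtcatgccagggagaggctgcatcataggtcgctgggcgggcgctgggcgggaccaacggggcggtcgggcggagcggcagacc
Nr1d1 (chr11:98636648-98636897, minus strand): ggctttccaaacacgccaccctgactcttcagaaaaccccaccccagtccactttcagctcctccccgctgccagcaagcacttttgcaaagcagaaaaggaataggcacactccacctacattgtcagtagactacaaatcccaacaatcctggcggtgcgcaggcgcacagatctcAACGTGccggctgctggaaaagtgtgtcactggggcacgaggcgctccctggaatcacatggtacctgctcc
Dbp (chr7:52960208-52960457, plus strand): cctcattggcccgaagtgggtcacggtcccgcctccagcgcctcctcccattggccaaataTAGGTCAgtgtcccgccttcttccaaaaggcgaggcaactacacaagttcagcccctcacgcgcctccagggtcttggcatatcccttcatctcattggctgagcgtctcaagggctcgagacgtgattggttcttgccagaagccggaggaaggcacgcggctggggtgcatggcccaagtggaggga
The D-box of Per2 begins 119 bases before the start, the E′-box of Cry2 192 and that of Nr1d1 72 bases before it, and the ROR element of Dbp 189 bases before it. A match describes the letters and not a bound site.

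Per2 (chr1:93312561-93355907), the period repressor, gained the most H3K27ac of the 10 genes in both vectors. Its window held 12.8 kb (A) and 10.6 kb (B) in empty-vector cells at 0 h and 32.2 kb and 35.2 kb at 48 h. In SETD5 cells it held 15.4 kb and 18.6 kb at 0 h and 43 kb and 47.2 kb at 48 h. All 4 libraries of 48 h therefore lay above all 4 of 0 h. The log2 change was 1.45 ± 0.16 (SE, limma adjusted p = 0.000436) with the empty vector and 1.36 ± 0.16 (adjusted p = 0.00099) with SETD5, and the call held under all 16 alternative settings in each. Within each time the SETD5 libraries exceeded the empty-vector ones, by 0.50 ± 0.16 at 0 h (limma adjusted p = 0.19) and 0.41 ± 0.16 at 48 h (adjusted p = 0.146), which did not pass the threshold. The promoter island lengthened from 3.8 kb and 4.2 kb to 8 kb and 8.2 kb in empty-vector cells and from 4.4 kb and 6.4 kb to 8.4 kb and 12.6 kb in SETD5 cells. Its rank went from 25.3% and 23.5% to 3.69% and 2.55% with the empty vector and from 17.9% and 20.2% to 1.44% and 1.27% with SETD5, and no library of 48 h overlapped one of 0 h.

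The gain at Per2 lay mainly in 3 places. Inside the gene, between 9.71 kb and 30.9 kb from the start (chr1:93325001-93346200), 2 short islands in each library of 0 h gave way to longer ones at 48 h, from 5.4 kb and 4 kb covered to 15.6 kb and 19.2 kb in empty-vector cells and from 5.6 kb and 7.2 kb to 18.4 kb and 20.6 kb in SETD5 cells. Around the start the second site lengthened as described. The third, an intergenic site from -26.1 kb to -20.1 kb (chr1:93376001-93382000), held no island at 0 h in any of the 4 libraries, and 3.4 kb and 3.2 kb with the empty vector and 5 kb and 6 kb with SETD5 at 48 h. It was the only one of 55 H3K27ac sites in the 10 windows with an island in all 4 lists of 48 h and in none of 0 h, a pattern held by 5.34% of 53157 sites in the genome. None of the 55 showed the opposite pattern (6.61% in the genome), and 32 of the 55 were in all 8 lists (32.9%). H3K4me1 had an island of 2.2 kb at that distal site at 0 h and none at 48 h. A further site at the start of Traf3ip1, 35 kb upstream, had an H3K27ac island of 1.6 kb in each SETD5 library of 48 h and in no other of the 8. The start of Hes6, downstream of Per2, had none in empty-vector cells at 0 h and 2.4 kb in each library at 48 h, and with SETD5 2.2 kb and 1.4 kb, then 2.8 kb and 2.4 kb.

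**Figure D2:**
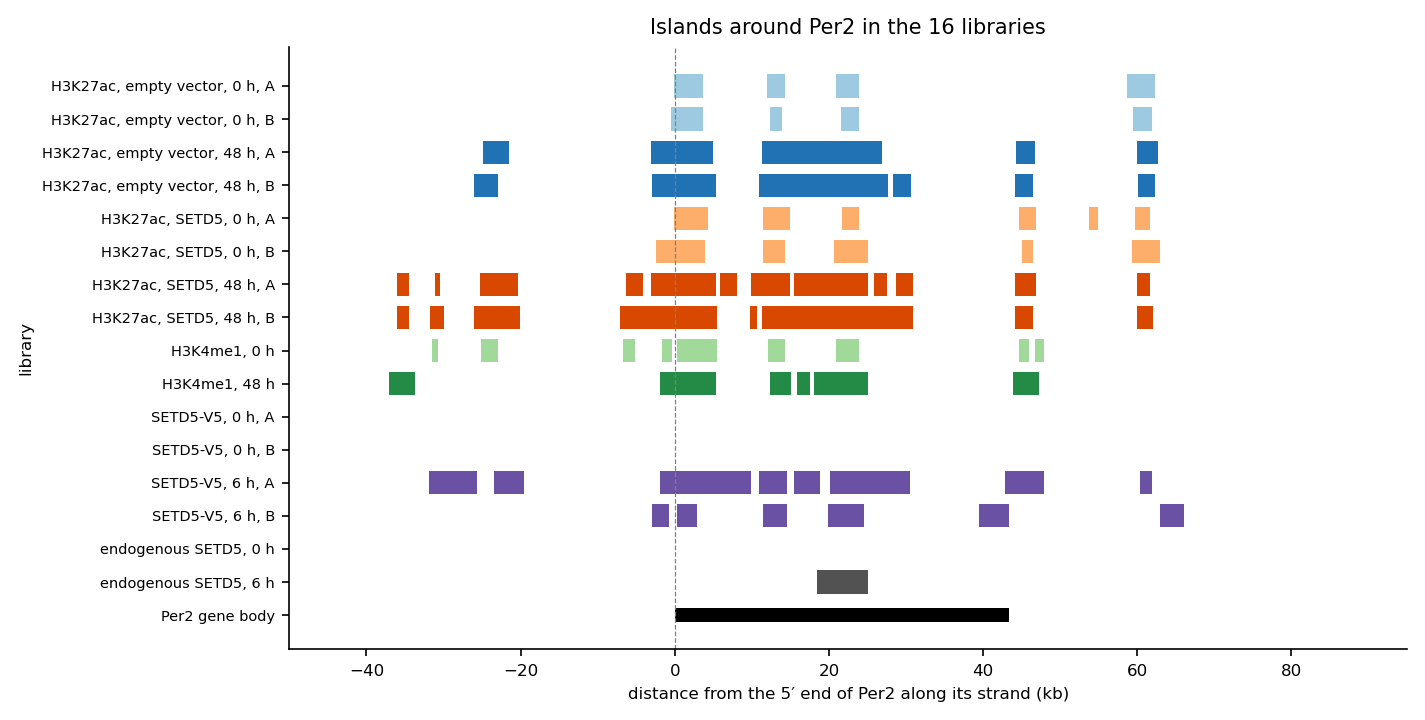
Islands in the Per2 window in all 16 libraries, drawn by distance (kb) from the 5′ end of Per2 along its strand, 1 row per library, with the gene body as a black bar. Short H3K27ac islands inside the gene at 0 h become blocks of 15.6 to 20.6 kb in total at 48 h, the H3K27ac site 20.1 to 26.1 kb upstream is drawn in the 48 h libraries and not at 0 h, and SETD5-V5 has no island at 0 h.

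The island inside Per2 is shown for 200 bases that all 8 H3K27ac lists covered, 22.7 kb to 22.9 kb from the start in an intron, since they hold 2 overlapping matches of the glucocorticoid element, set in capitals as 1 run. The window was picked for its match out of a site of 21.2 kb. A match was present in 0.4% of the 1122297 windows of that length in H3K27ac sites of the genome.
Per2 intron (chr1:93333001-93333200, minus strand): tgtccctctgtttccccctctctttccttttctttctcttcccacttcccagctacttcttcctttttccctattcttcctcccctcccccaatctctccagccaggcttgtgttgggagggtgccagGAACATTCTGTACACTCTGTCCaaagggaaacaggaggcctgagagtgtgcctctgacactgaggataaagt
The site from -26.1 kb held none of the 6 motifs.

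The 3 genes whose covered length followed that of Per2 most closely over the 8 H3K27ac libraries, among 11570 genes on other chromosomes with 5 kb or more on average, were Stab1 (Pearson r = 0.997), Vangl1 (0.995) and Ear5 (0.993). For Cry2 they were Hipk2 (0.971), Paqr6 (0.966) and C2cd2l (0.964), and for Dbp Gfm1 (0.995), Fam107a (0.992) and Dolpp1 (0.988). The closest value for Bhlhe40 was lower, at 0.765 (Rnf13). The 8 points are 4 conditions of 2 libraries each, which all these genes share.

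Per3 (chr4:150377761-150418774) and Cry1 (chr10:84594447-84647799) had the shortest covered lengths of the 10. The window of Per3 held between 3.6 kb and 7 kb over the 8 libraries and that of Cry1 between 3.4 kb and 6 kb. Neither was called in any comparison of time or vector. At the Per3 promoter the rank was 34.0% and 40.9% at 0 h and 47.5% and 64.9% at 48 h in empty-vector cells, and 33.6% and 36.7% at 0 h and 48.6% and 58.0% at 48 h in SETD5 cells, so that it stood lower at 48 h in both without overlap of the libraries. At Cry1, a cryptochrome repressor, it was 68.0% and 81.5% at 0 h and 73.6% and 74.3% at 48 h with the empty vector, which overlapped, and 53.5% and 50.5%, then 46.4% and 45.2%, with SETD5, which did not.

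Cry2 (chr2:92243803-92274200), the other cryptochrome, changed in opposite directions in the 2 vectors, by little with SETD5, and the difference was not called. The window held 19.2 kb and 15.2 kb in empty-vector cells at 0 h and 23.8 kb in each library at 48 h. In SETD5 cells it held 18.4 kb and 19.2 kb at 0 h and 18 kb and 17.4 kb at 48 h. Every empty-vector library of 48 h lay above those of 0 h and every SETD5 library of 48 h below. The log2 change was 0.46 ± 0.15 (SE, limma adjusted p = 0.0492) with the empty vector, a call lost under 12 of 16 alternative settings, with values down to 0.30 without library B of 0 h and 0.12 within 100 kb, and -0.08 ± 0.15 (adjusted p = 0.743) with SETD5. The difference between these changes, -0.54 ± 0.22, gave an adjusted p of 0.228 and did not pass the threshold. The promoter island measured 5.4 kb and 4.6 kb, then 16 kb and 14.8 kb, in empty-vector cells, and 11.2 kb and 6.4 kb, then 5.8 kb and 5.6 kb, in SETD5 cells. Part of that contrast is a matter of 2 neighbouring islands being joined, as they were in both empty-vector libraries of 48 h and in SETD5 library A of 0 h. The whole site, from -2.4 kb to 14.0 kb, was covered over 12 kb and 8.4 kb at 0 h and 16 kb and 14.8 kb at 48 h with the empty vector, and over 11.2 kb and 12 kb at 0 h and 11.6 kb and 11 kb at 48 h with SETD5. The rank of the promoter island went from 22.1% and 20.2% to 7.97% and 7.01% with the empty vector, and from 8.97% and 13.9% to 15.1% and 16.6% with SETD5. The joined islands were those ranked at 7.97%, 7.01% and 8.97%, and the part of joining in the ranks was not tested. At 48 h the vectors did not overlap in the length of the promoter island or in the covered length of the whole site.

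**Figure D3:**
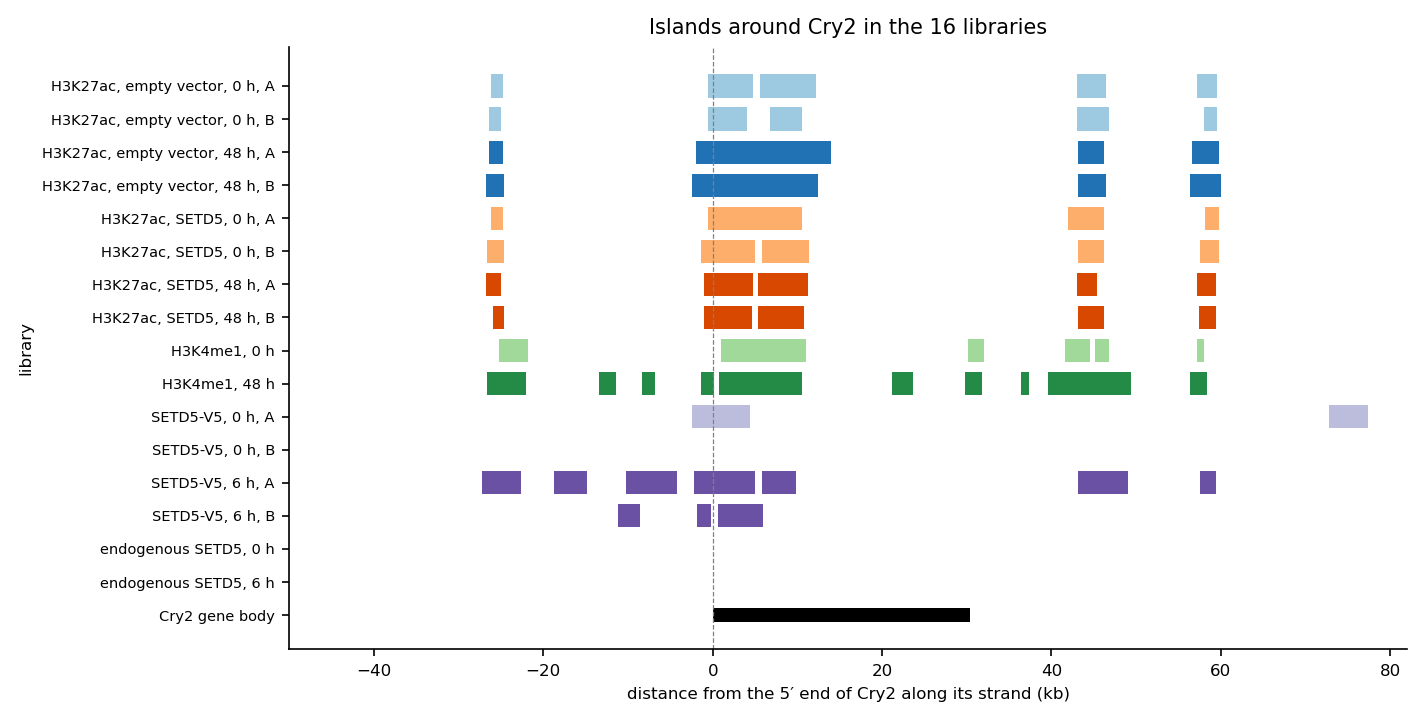
Islands in the Cry2 window in all 16 libraries by distance (kb) from the 5′ end of Cry2 along its strand, 1 row per library, with the gene body as a black bar. At the promoter a single island of 16 kb and 14.8 kb is drawn for the empty-vector libraries of 48 h, where both SETD5 libraries of 48 h have 2 islands separated by a gap.

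Arntl (chr7:120350979-120457636) and Clock (chr5:76639992-76733817) encode the activating pair. Arntl held 11.02 kb and 10 kb in empty-vector cells at 0 h and 17.6 kb in each library at 48 h, and in SETD5 cells 8.82 kb and 11.8 kb at 0 h and 16.2 kb and 21.2 kb at 48 h. The log2 change was 0.70 ± 0.19 (SE, limma adjusted p = 0.0222) and 0.80 ± 0.19 (adjusted p = 0.0172), larger at 48 h in every library of both vectors. Within 10 kb of the gene body it was 0.46 (limma adjusted p = 0.0627) and 0.22 (adjusted p = 0.384). The empty-vector call was lost under 6 of 16 alternative settings and the SETD5 call under 4 of 16. Removing any single empty-vector library lost the empty-vector call, with changes of 0.63 to 0.76. Removing SETD5 library A of 0 h or library B of 48 h lost the SETD5 call, with changes of 0.61 and 0.62. Part of the length came from 2 intergenic sites centred at -34.7 kb and -20.4 kb. The second held 2 kb and 0 kb at 0 h and 3.2 kb and 4.2 kb at 48 h with the empty vector, and 0 kb and 2 kb, then 3.4 kb and 4 kb, with SETD5. The promoter rank of Arntl was 45.5% and 39.4% at 0 h and 18.3% and 23.0% at 48 h in empty-vector cells, and 21.6% and 31.1%, then 11.8% and 15.4%, in SETD5 cells.

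Clock held 10.2 kb and 6.8 kb in empty-vector cells at 0 h and 16.6 kb and 13.6 kb at 48 h. In SETD5 cells it held 7.2 kb and 7.4 kb at 0 h and 9.8 kb and 9.4 kb at 48 h. The empty-vector libraries of 48 h were thus the 2 highest of the 8. The change was called with the empty vector, at 0.78 ± 0.20 (SE, limma adjusted p = 0.017, with values of 0.0079 to 0.0973 over the alternatives), and was 0.35 ± 0.20 with SETD5 (adjusted p = 0.239), while the difference between them was -0.43 ± 0.28 (adjusted p = 0.455). Without empty-vector library A of 48 h the empty-vector change was 0.64 (adjusted p = 0.0973) and without library B of 0 h it was 0.52 (adjusted p = 0.0777). The Clock promoter island grew from 3.2 kb and 2.6 kb to 7 kb and 4.2 kb with the empty vector, and was 2.4 kb and 3 kb at 0 h and 2.8 kb and 3 kb at 48 h with SETD5. Its rank improved without overlap in both, from 4.2% and 5.18% to 0.952% and 2.18% with the empty vector and from 5.11% and 6.48% to 2.48% and 2.95% with SETD5.

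Nr1d1 (chr11:98629246-98636647) encodes REV-ERBα, and its gene overlaps the 3′ end of Thra, a thyroid hormone receptor gene, on the other strand. Its window was densely marked in every library, with 49.0 kb and 49 kb in empty-vector cells at 0 h, 59.0 kb and 53.2 kb at 48 h, 48.4 kb and 53.0 kb in SETD5 cells at 0 h and 48.2 kb and 50.8 kb at 48 h, and all 8 of its sites were in all 8 lists. No comparison was called, though with islands above the median score of each list the empty-vector change was called at 0.39 (limma adjusted p = 0.0478). At the promoter, by contrast, the island was shorter at 48 h in every library, at 6.4 kb in both against 7.6 kb and 7.8 kb with the empty vector, and at 5.6 kb and 5.8 kb against 7.2 kb and 7.6 kb with SETD5. Its rank went from 2.62% and 3.00% to 6.36% and 6.37% with the empty vector and from 2.21% and 2.87% to 9.16% and 8.16% with SETD5. The site over exons of Thra and Nr1d1, centred 10.8 kb from the start, was longer at 48 h, from 1.4 kb and 2.2 kb to 8.8 kb and 4.8 kb and from 3 kb and 4.2 kb to 6.6 kb and 6.4 kb.

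Nr1d2 (chr14:19036568-19071641), which encodes REV-ERBβ, was the gene called between vectors at 48 h. It held 4.6 kb and 6 kb in empty-vector cells and 8.6 kb and 9.8 kb in SETD5 cells at that time, a log2 difference of 0.70 ± 0.18 (SE, limma adjusted p = 0.0424), and the call was lost under 7 of 16 alternative settings, including the removal of any of these 4 libraries (adjusted p of 0.0512 to 0.197). At 0 h it held 5.4 kb and 6.4 kb against 6.2 kb and 7.8 kb. A site centred at -25.0 kb, empty in all 4 lists of 0 h, held 0 kb and 1.4 kb with the empty vector and 2.4 kb and 3.2 kb with SETD5 at 48 h. The promoter island was shorter at 48 h in both vectors, at 2.2 kb and 2.4 kb against 3.2 kb and 2.8 kb with the empty vector and 2.6 kb and 2.4 kb against 2.8 kb and 3.8 kb with SETD5.

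Dbp (chr7:52960458-52965525) gave opposite readings for its window and its promoter. The window held 14 kb and 12.8 kb in empty-vector cells at 0 h and 25.4 kb and 21 kb at 48 h, a log2 change of 0.74 ± 0.15 (SE, limma adjusted p = 0.00657). With SETD5 it held 15 kb and 14.8 kb at 0 h and 17.6 kb and 19.4 kb at 48 h, a change of 0.29 ± 0.15 (adjusted p = 0.205). When islands above the median score of each list were used alone, Dbp was called in SETD5 cells too, at 0.74 (adjusted p = 0.0256), as it was with the empty vector. With the empty vector the added length lay at other sites of this window, in which 9 other genes fall. The site over the Dbp start covered 5.6 kb and 6.2 kb at 0 h and 5.6 kb and 6 kb at 48 h. The site at Sec1 and Ntn5 went from 4.4 kb and 3.8 kb to 11.2 kb and 7 kb. The site at Sphk2 and Rpl18 went from 4 kb and 2.2 kb to 6 kb and 5.6 kb. A site at Sult2b1 went from 0 kb and 0.6 kb to 2.6 kb and 2.4 kb. Within 10 kb of the gene body the empty-vector change was 0.29 (adjusted p = 0.145). The promoter island of Dbp was 5.6 kb and 6.2 kb, then 5.6 kb and 6 kb, with the empty vector, and 6 kb and 5.8 kb, then 5.6 kb and 5.2 kb, with SETD5, where it was shorter without overlap. Its rank dropped from 4.32% and 3.49% to 15.0% and 12.9% with the empty vector and from 1.82% and 2.03% to 11.2% and 9.92% with SETD5. Every library of 48 h ranked below every library of 0 h.

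**Figure D4:**
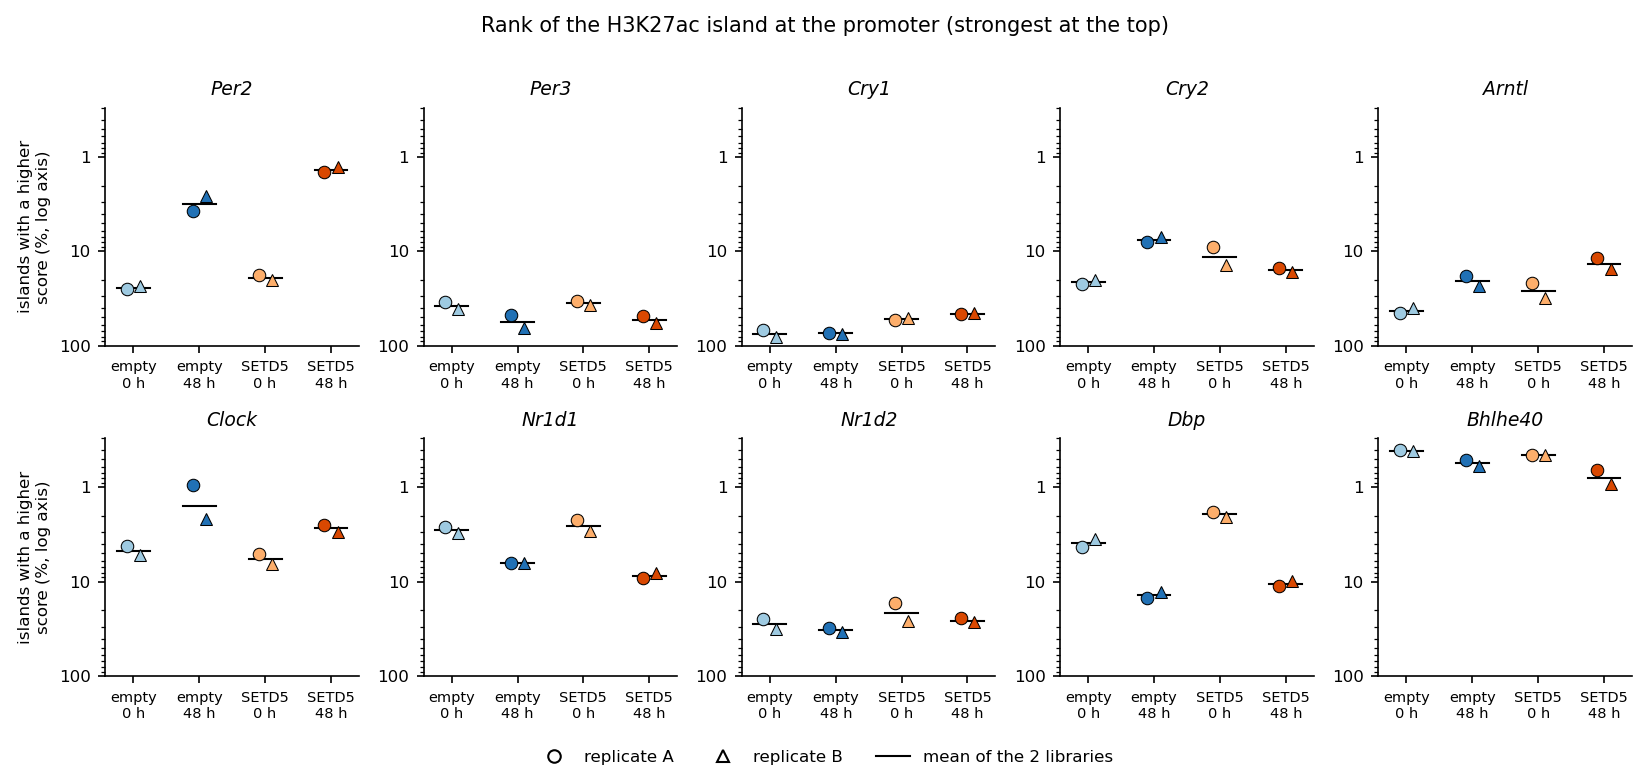
Rank of the promoter H3K27ac island of each clock gene, as the percentage of islands in the same list with a higher score on a log axis with the strongest at the top, by vector and time, with circles for library A, triangles for library B and a bar at the mean of the 2 libraries. Per2, Arntl and Clock stand higher at 48 h in both vectors, Per3, Nr1d1, Dbp and Bhlhe40 lower, and Cry2 stands higher with the empty vector and lower with SETD5. Some of the Cry2 islands ranked here were 2 neighbouring islands joined.

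A rank also depends on how many islands a list holds, which differed between times (33704 and 35460 at 0 h and 31292 and 33131 at 48 h with the empty vector, 39949 and 36604, then 39068 and 39451, with SETD5), and its part in the changes of rank was not tested. Counted over the 10 promoters, the rank stood higher at 48 h without overlap at 4 genes with the empty vector (Per2, Cry2, Arntl and Clock), as it did at 41.9% of 11779 promoters with an island, and lower at 4 (Per3, Nr1d1, Dbp and Bhlhe40), against 27% of promoters. With SETD5 it stood higher at 4 (Per2, Cry1, Arntl and Clock) against 42.6%, and lower at 5 (Per3, Cry2, Nr1d1, Dbp and Bhlhe40) against 24.1%. The promoter island was longer at 4 (30.2%) and shorter at 2 (14.1%) with the empty vector, and longer at 2 (19.7%) and shorter at 5 (21.1%) with SETD5. The movement at Bhlhe40 was within the top 1% of islands, from 0.404% and 0.412% to 0.508% and 0.595% and from 0.456% and 0.454% to 0.658% and 0.915%. Between vectors at 48 h the island was longer in SETD5 cells at 1 gene, Per2 (11.5%), and shorter at 4, Cry2, Arntl, Clock and Nr1d1 (26.8%). At 0 h it was longer at 2, Per2 and Cry2 (14.5%), and shorter at none (11.5%). In rank, 5 of the promoters stood higher in SETD5 cells at 0 h (53.7% of all promoters) and 1 lower, Bhlhe40 (7.02%), and at 48 h 5 stood higher (54.7%) and 4 lower, Cry2, Clock, Nr1d1 and Bhlhe40 (15.3%). The SETD5 lists held more islands than the empty-vector lists at each time, and ranks between vectors were not read further. The part of list size in them was not tested.

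A further 22 clock genes were taken as a list, comprising paralogs of the 10, ROR receptors, D-box factors, kinases, ubiquitin ligases and cofactors. With the empty vector 8 of 22 had a longer and 2 a shorter covered length at 48 h, against 23.6% and 13.6% of all genes, with a median log2 change of 0.45 against 0.14. With SETD5 4 were longer and 2 shorter, against 14.8% and 11.9%, with a median of -0.0033 against 0. Rorb, a ROR receptor, went from 0 kb and 1.8 kb to 39.6 kb and 32.2 kb in empty-vector cells and from 0 kb in both libraries to 6.8 kb and 7.4 kb in SETD5 cells, and the log2 difference between vectors at 48 h was -2.18 ± 0.41 (SE, limma adjusted p = 0.0142). It passed the filter on low values through the 48 h libraries, which fixes the direction of its change with time. Nampt, the rate-limiting enzyme of NAD+ salvage, went from 3.2 kb and 2.8 kb to 19.8 kb and 22.4 kb, and with SETD5 from 5 kb and 2.6 kb to 15.8 kb and 14 kb. Tef and Nfil3, a D-box activator and a D-box repressor, were called longer in both vectors, as were Rorb and Nampt. Tipin, a partner of Timeless, was called shorter in both, with log2 changes of -0.57 (limma adjusted p = 0.0398) and -0.67 (adjusted p = 0.0304). Arntl2, Rora, Btrc and Timeless were called longer with the empty vector only. At 48 h Rorb and Timeless were called shorter in SETD5 than in empty-vector cells, and no gene of the 22 was called for the difference of the changes, where Timeless came nearest (-0.98 ± 0.21, limma adjusted p = 0.0523).

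SETD5-V5 covered more of most clock windows at 6 h than at 0 h, as it did in the genome. In 8 of the 10 windows both libraries of 6 h lay above both of 0 h, a pattern met at 62% of 14764 genes tested, and in none the reverse held (1.42%). No gene was called at an adjusted p under 0.05 by limma, with 4468 genes (30.3%) under an unadjusted p of 0.05 and Per2, Per3, Arntl and Clock among them, and the median log2 change of all genes was 1.81 against 2.23 for the 10. Per2 had no island at 0 h in either library and 46 kb (A) and 19.4 kb (B) at 6 h, the largest change of the 10 at 4.95 ± 0.64 (SE, adjusted p = 0.0609, and 0.535 with libraries scaled to equal medians). Per3 likewise went from none to 6.6 kb and 4 kb. Both passed the filter on low values through the 6 h libraries alone, which fixes the direction of their change. Clock held 9.8 kb and 5 kb at 0 h and 40.4 kb and 24.6 kb at 6 h, and Arntl 3 kb and 0 kb, then 26.2 kb and 12 kb. Nr1d1 differed, with 37.6 kb and 13.6 kb at 0 h and 48.4 kb and 7.6 kb at 6 h, so that both the highest and the lowest value were at 6 h. Its promoter, like that of Dbp, carried an island in both libraries of 0 h and in library A of 6 h, and none in library B of 6 h. Bhlhe40 carried a promoter island in all 4, of 5.8 kb and 3.4 kb at 0 h and 9.6 kb in each at 6 h. Of the 10 promoters, Per2 and Bhlhe40 had a longer SETD5-V5 island at 6 h without overlap (38.2% of promoters with an island) and none a shorter one (1.11%). Scaling to equal medians lowered the change of every gene by the same amount, which turned those of Cry2, Clock, Nr1d2, Dbp and Bhlhe40 negative and says nothing particular to these genes. With islands above the median score of each list alone, that of Clock was negative without scaling, and was not called. Library B of 0 h, with the fewest islands, held none in 6 of the 10 windows.

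**Figure D5:**
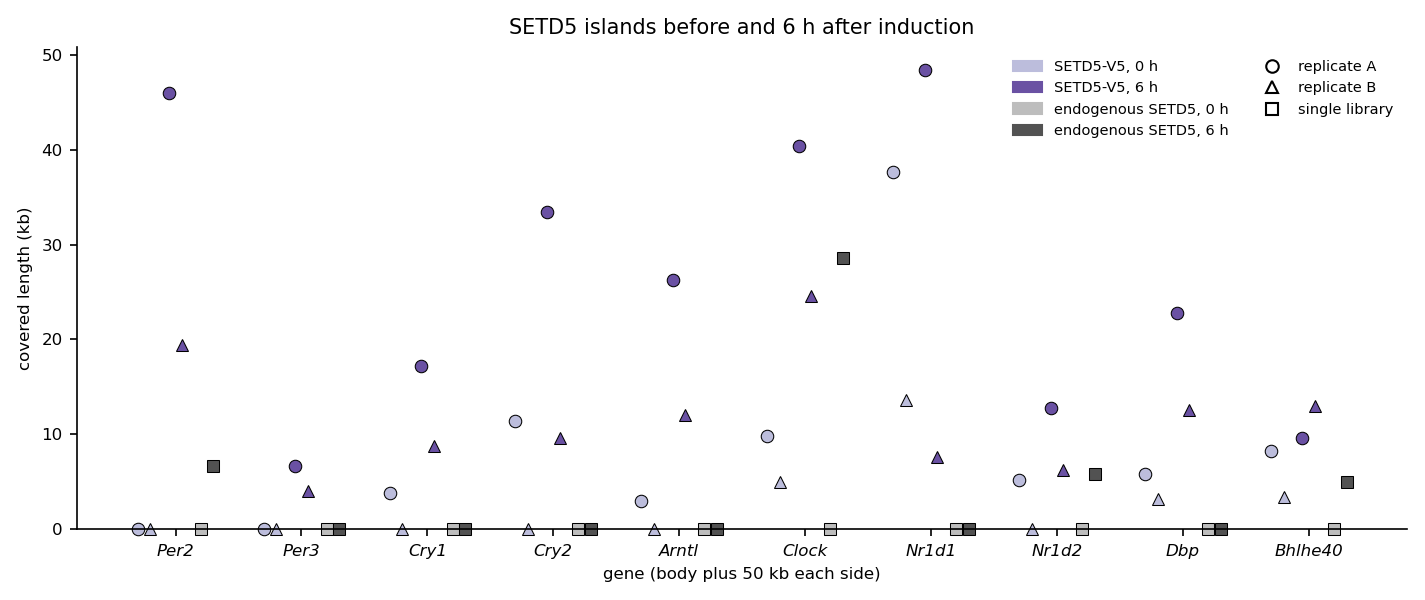
Covered length (kb) of SETD5-V5 islands (purple, circles for library A and triangles for library B) and of endogenous SETD5 islands (grey squares, 1 library per time) in the windows of the 10 clock genes at 0 h (light) and 6 h (dark). Per2 goes from 0 to 46 kb and 19.4 kb for SETD5-V5, and endogenous SETD5 is seen at Per2, Clock, Nr1d2 and Bhlhe40 at 6 h.

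Endogenous SETD5 had no island in any of the 10 windows at 0 h and islands in 4 of them at 6 h, where 11.2% of all genes had one at 0 h and 20.8% at 6 h. Clock had the most, 28.6 kb in 4 islands, 1 of which, of 8.6 kb, covered the promoter, where SETD5-V5 also had an island in both libraries of 6 h. Per2 had 1 island of 6.6 kb, at 18.5 kb to 25.1 kb from the start and thus over the intronic sequence shown above, Nr1d2 1 of 5.8 kb and Bhlhe40 1 of 5 kb at its promoter. With 1 library at each time no test was made. Genome-wide, 67.3% of the 4898 genes with 1 kb or more on average had at least 2-fold more covered length (of kb + 1) at 6 h. The 4 clock genes had no island at 0 h and so entered through the 6 h library, which fixes their direction.

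For H3K4me1, with 1 library per time and no test, none of the 8 clock genes that had 1 kb or more reached 2-fold in either direction between 0 h and 48 h, where 14.4% of 15428 genes were longer and 7.92% shorter, so that a count of 0 among 8 is near the background. Cry2 came nearest, with 20.6 kb at 0 h and 36.8 kb at 48 h (1.75-fold of kb + 1), and its promoter carried one of the strongest H3K4me1 islands of either list, at ranks of 0.794% and 1.05%. Per2 held 18.8 kb and 25.4 kb, Nr1d1 39.6 kb and 45.4 kb, and Dbp 10.8 kb and 16.4 kb. The promoter island of Per3, of 1.4 kb at 0 h, was absent from the list of 48 h. Bhlhe40 had an island of 3 kb within 1 kb of a start at 0 h and none that near at 48 h. Over the whole H3K27ac site around its start, however, H3K4me1 covered 3.8 kb at 0 h and still 3 kb at 48 h. Cry1 had no H3K4me1 island at either time and Nr1d2 none at 0 h and 1.8 kb at 48 h. The promoters of Arntl and Clock, marked by H3K27ac in all 8 lists, had no H3K4me1 island within 1 kb of a start at either time, though islands elsewhere in their windows covered 21.4 kb and 26.8 kb at Arntl and 22.4 kb and 23.8 kb at Clock.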

How the data were processed

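Per the labels and the methods of the study, the authors mapped the reads to mm9 with ELAND or Bowtie2, called islands with SICER or SICER2 and used deepTools. The gap allowed within an island was shorter for H3K27ac and H3K4me1 than for SETD5, so lengths are not compared between these. The deposited lists give the position of each island and its score, for which no unit is stated, and the authors called islands in each library separately. Island ends lie on a grid of 200 bp, so lengths move in such steps. The score was used for ranks within a list only, and the lists hold no reads. Windows were gene bodies plus 50 kb on each side from the GENCODE annotation of mm9 (NCBIM37), and sequences from that genome, and island lengths were summed within them after clipping. Tests used limma 3.58.1 in R 4.3.3 on log2(kb + 1), with 1 model for the 8 H3K27ac libraries and 1 for the 4 SETD5-V5 libraries, over genes with 1 kb or more on average and with Benjamini-Hochberg adjustment at 0.05. No p was computed for H3K4me1 or endogenous SETD5, which have 1 library per time, and a change of 2-fold in kb + 1 is given instead. The other values were computed in Python 3.11.15. The H3K27ac fit was tested on simulated data for the empty-vector change from 0 h to 48 h only. The 10 genes, the 22 further clock genes and the markers were chosen by name, with earlier results of these data known. All 10 are described. Of the further genes those called in any comparison could be named, and so could neighbours in a window and the 3 genes of other chromosomes most like a gene. Alternatives were other window sizes, pseudocounts, filters, island selections, scaling, a replicate block and the removal of each library. Of the further clock genes, 1 is counted but its values are not reported here.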

Additional observations from a re-analysis of the deposited data

Results flagged for a closer look

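Cry2 was flagged because, in each vector, the libraries of 48 h did not overlap those of 0 h, and the directions were opposite. All 10 genes were screened for this, in covered length and in promoter island length. The share of all genes with such a pattern was not computed. The H3K27ac covered length of Cry2 changed by 6.6 kb from 0 h to 48 h in empty-vector cells and by -1.1 kb in SETD5 cells. The difference between the changes was -7.7 kb, for which the limma interaction gave an adjusted p of 0.228. Its promoter island changed by 10.4 kb in empty-vector cells and by -3.1 kb in SETD5 cells, a difference of -13.5 kb that was not tested. Part of it comes from 2 neighbouring islands being joined. Over the whole site the islands covered 12 kb and 8.4 kb at 0 h and 16 kb and 14.8 kb at 48 h with the empty vector, and 11.2 kb and 12 kb, then 11.6 kb and 11 kb, with SETD5.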

How the results depend on the processing

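Of the clock genes called, Per2 was called between 48 h and 0 h in each vector under all 16 alternatives. The empty-vector count of 5 called genes became 1 within 10 kb of the gene bodies (Per2), 3 without the filter on low values, 6 with islands above the median score of each list (Nr1d1 was added), and 2 to 4 when a library was left out (2 without library A of 48 h or without library B of 0 h, 3 without library B of 48 h). The SETD5 count of 2 became 1 within 10 kb (Per2), 1 without the filter, 3 with islands above the median score or within 100 kb, and 1 to 2 when a library was left out (1 without library A of 0 h or without library B of 48 h). The count of 1 between vectors at 48 h became 0 within 10 kb, 2 within 100 kb, 0 with a pseudocount of 0.2 kb, 0 without the filter, 2 with libraries centred on their medians (Clock was added, at -0.55 with an adjusted p of 0.045), and 0 when any of its 4 libraries was left out. The SETD5-V5 count of 0 became 1 within 10 kb (Per2), 2 with a pseudocount of 0.2 kb (Per2 and Per3), and 0 to 2 when a library was left out (2 without library A or without library B of 6 h). The counts for the vectors at 0 h and for the difference of changes were 0 throughout. Within 100 kb Cry2 was called shorter at 48 h in SETD5 cells, at -0.59 with an adjusted p of 0.0208. No called value changed sign. The causes were not tested. Over all genes the number called ranged from 3977 to 7892 for the empty vector (6344), from 2505 to 5501 for SETD5 (4540), from 35 to 748 between vectors at 0 h (343), from 645 to 3140 at 48 h (2362), from 61 to 1102 for the difference of changes (513) and from 0 to 4298 for SETD5-V5 (0).

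The labels do not say whether libraries with the same letter shared a culture or day, and they were not treated as pairs. The correlations of their deviations from the group means ran from -0.03 to 0.12 for H3K27ac and were 0.015 for SETD5-V5. With a replicate block, the counts of called clock genes were 4 for the empty vector (Cry2 was lost), 2 for SETD5, 0 and 1 between vectors at 0 h and 48 h, 0 for the difference of changes and 0 for SETD5-V5. The lists hold no reads per island and the library totals that the study states were not used, so here a change in depth and a change in enrichment near the caller's threshold cannot be told apart. Where a fit left a group with 1 library, that library was assumed to vary like the other groups.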
